A study of Brassica napus with 23 samples.

Results

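Roots of Brassica napus (oilseed rape) treated with the bacterium Pseudomonas chlororaphis PA23 were compared with control roots 7 d after treatment. The comparison takes 6 of the 23 RNA sequencing libraries of the series, 3 per group, chosen by the tissue, treatment and harvest that the labels give and not by any measured value. PA23-treated plants received 15 mL of a PA23 culture on day 7 after planting and control plants received LB broth, the medium of the bacterium, at the same age; all grew for 14 days. Every group of the series, both of these included, is Brassica napus with no mutation or transgene in the labels. The labels do not say which cultivar was used, or whether a library holds 1 plant or a pool. Separate plants are not stated, so a p-value describes the spread among libraries, part of which may be technical.

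PA23 is a soil and root bacterium used as a biocontrol strain. It is known for antifungal compounds such as phenazines and pyrrolnitrin and for protecting oilseed rape against the stem rot fungus Sclerotinia sclerotiorum. Root-colonising bacteria can also prime the defences of the plant, in a state called induced systemic resistance, in which jasmonate and ethylene signalling take part. Oilseed rape carries an A and a C subgenome, from relatives of turnip and cabbage, so most genes exist as near-identical A and C copies. The labels do not say how reads shared by such copies were assigned, and the split of a signal between them is uncertain.

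The deposited table holds a raw count of each of 101040 gene IDs in every library. CPM below means counts per mega counts after TMM scaling, which removes differences in depth and composition between libraries. Raw CPM means counts per mega counts without TMM scaling. The files do not pair IDs with gene names, and only 2 of the IDs carried another name in the RefSeq table. Genes are therefore given by ID and by position in the deposited table, whose genome build neither the labels nor the files name. No role is assigned to an unnamed ID.

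The 6 libraries were unlike in depth. PA23 replicates 1, 2 and 3 held 29.5, 31.6 and 1.00 M counts (M, mega), and control replicates 1, 2 and 3 held 82.7, 45.8 and 0.622 M. Replicate 3 of each group was thus shallow, and a gene at 1 CPM has about 1 count there. PA23 replicate 3 also held shoot transcripts, described below, and the main results are given with and without it. PA23 replicate 1 stood apart in another way. Among its counts from 1 to 10, 57.6% were odd, against 31.8% and 22.3% in PA23 replicates 2 and 3 and 19.3% to 30.8% in the controls. Its levels were also closer to those of the 2 deep controls than to those of PA23 replicate 2. Over 32036 genes with a mean of at least 5 CPM, its Spearman correlation was 0.976 with control replicate 2, 0.956 with control replicate 1 and 0.9496 with PA23 replicate 2. With the shallow libraries it was lower, 0.798 with PA23 replicate 3 and 0.791 with control replicate 3. The part of this library's counting in the results was not tested. In the labels each library's name opens with a number, which was the same in all 3 PA23 libraries and control replicate 2 and another in control replicates 1 and 3. The labels do not say what it stands for, and apart from control replicate 2 it cannot be told apart from the treatment.

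With all libraries in the fit, the difference between PA23-treated and control roots passed the threshold in no gene. Of 63551 genes tested, 0 (0%) had a Benjamini-Hochberg adjusted p under 0.05 in edgeR's quasi-likelihood test, fitted with all 11 root libraries, and 4429 (6.97%) had an unadjusted p under 0.05. At that unadjusted level 1866 genes (2.94% of those tested) lay higher with PA23 and 2563 (4.03%) lower. Without PA23 replicate 3 the count was also 0 (0%) of 63351, with 3916 genes at an unadjusted p under 0.05. With the name number as a covariate the count was 0 as well (2460 genes at an unadjusted p under 0.05), and within the shared number there is 1 control, which allows no test. Most differences were small. Among genes of at least 5 CPM the median size of the log2 fold change was 0.20, and 306 of 32036 (0.955%) differed at least 2-fold, 135 higher and 171 lower with PA23. Leaving out PA23 replicate 3 gave 196 of 32071 (0.611%), 30 higher and 166 lower. The 3 PA23 libraries all lay above the 3 controls in 3768 genes (5.93%) and all below them in 3254 (5.12%). PA23 replicates 1 and 2, taken without the third, were both above all controls in 8017 of 63351 genes (12.7%) and both below in 4223 (6.67%). Fewer libraries part more easily without any effect, so these shares cannot be set against those of all 6 libraries. The share of genes that part by chance was not tested. The balance turned with level. With all 6 libraries, higher genes outnumbered lower ones in every class under 20 CPM (407 against 142 under 1 CPM). At 20 to 100 CPM 615 were higher and 1020 lower, and at 100 CPM or more 140 and 192. The part of counts of 0 in the shallow control replicate 3 was not tested.

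Other fits did call genes, and the number of calls depended on the tool and the libraries used. Lower calls outnumbered higher ones in each fit given here except DESeq2 without control replicate 1. DESeq2 called 164 genes (0.258%) with an adjusted p under 0.05, of which 60 were higher and 104 (0.164%) lower. Without PA23 replicate 3 DESeq2 called 50 of 63351 (0.0789%), 9 higher and 41 (0.0647%) lower, and 40 of these were among the 164, which is 80% of the shorter list and 24.4% of the longer. The edgeR test called 548 of 63257 genes (0.866%) without PA23 replicate 1, 60 higher and 488 (0.771%) lower. It called 81 of 62268 (0.13%) without control replicate 2, 68 of them (0.109%) lower, and 1 of 63114 (0.00158%) without PA23 replicate 2. DESeq2 without control replicate 1, an alternative chosen after seeing the data, ran the other way: it called 553 of 62372 genes (0.887%), 378 higher and 175 (0.281%) lower. Among the edgeR fits without 1 library, leaving out PA23 replicate 1 moved the count most.

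The 548 genes show where PA23 replicate 1 lay. The 488 lower genes had a median log2 fold change of -1.61 without that library, and 422 of them differed at least 2-fold. PA23 replicate 1 was below the control mean in 431 of the 488 and below all 3 controls in 260. Its median difference from the controls over these genes was -0.28, against -1.43 for the other PA23 libraries, on the log2 scale. In the 60 higher genes it was above the control mean in 48 and above all 3 controls in 40, with a median difference of 0.40 against 1.33 for the other PA23 libraries. PA23 replicate 1 thus lay on the same side as the other PA23 libraries in most of these genes, but nearer to the controls. The 548 were chosen by the other libraries, among them the same 3 controls that PA23 replicate 1 is set against here. Its side relative to the controls is therefore not independent of the choice, and these values are a description.

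A small set of 12 genes was called in every DESeq2 fit run (all libraries, and leaving out PA23 replicate 1, PA23 replicate 3, control replicate 1 or the libraries under 2 M counts) and also by edgeR without PA23 replicate 1. Of these 12, 2 rose with PA23 and 10 fell. The 10 had DESeq2 log2 fold changes of -1.08 to -0.66, so they were moderate changes in genes of 41.4 CPM and above. Genes of low level had no DESeq2 adjusted p and could not be among the 12. All 12 had no overlap between the 3 PA23 and the 3 control libraries, against 11% of all genes tested. Fits to these same libraries chose the 12, so the lack of overlap is a description. The 4 with the smallest DESeq2 adjusted p are given here with their values in every library. They were chosen after their values were seen.

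BnaA03g54880D (A03_random, 44751 to 45330) was the most abundant of the 12. It lay at 297, 489 and 543 CPM in PA23 replicates 1, 2 and 3, against 177, 198 and 165 CPM in control replicates 1, 2 and 3. PA23 replicate 1 was the lowest of the PA23 libraries and still above every control. The means were 443 ± 129 CPM with PA23 and 180 ± 16.3 CPM in controls (SD, n = 3 each), and the log2 fold change was 1.28 (SE 0.21). The call depends on the fit and on the genes adjusted over. The adjusted p was 0.565 with edgeR, over all genes tested, and 1.56e-05 with DESeq2, over those its filter left. Unadjusted it was 1.46e-05 with edgeR and 7.09e-09 with DESeq2. The adjusted p values of the next genes differ in the same way. Over edgeR fits without 1 library the adjusted p of BnaA03g54880D ran between 0.000996 and 0.797. Leaving out PA23 replicate 3 gave a log2 fold change of 1.08.

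BnaC05g38240D (C05, 37017131 to 37017881) showed the same arrangement. It lay at 105, 174 and 200.1 CPM in the PA23 libraries, against 47.6, 73.5 and 40.3 CPM in the controls. The lowest PA23 library, again replicate 1, was above the highest control, replicate 2. The means were 160 ± 49.1 CPM with PA23 and 53.8 ± 17.5 CPM in controls (SD, n = 3 each), and the log2 fold change was 1.49 (SE 0.26; edgeR adjusted p = 0.565, DESeq2 adjusted p = 1.56e-05). It was 1.28 without PA23 replicate 3.

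BnaA03g49690D (A03, 25679262 to 25681247) fell with PA23 in DESeq2. It lay at 151, 112 and 96.8 CPM in the PA23 libraries, against 227, 212 and 220 CPM in the controls. The controls were tightly grouped and PA23 replicate 1 was the PA23 library nearest to them. The log2 fold change was -0.85 (SE 0.16; edgeR adjusted p = 0.565, DESeq2 adjusted p = 0.000602), and -0.78 without PA23 replicate 3. This gene belongs to the root: its highest value in any shoot library was 1.95 raw CPM.

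BnaA04g20940D (A04, 16005755 to 16011692) lay at 74.2, 67.5 and 55.8 CPM in the PA23 libraries, against 118, 130 and 100.1 CPM in the controls. Its log2 fold change was -0.81 (SE 0.16; edgeR adjusted p = 0.565, DESeq2 adjusted p = 0.000602), and -0.77 without PA23 replicate 3. In contrast to BnaA03g49690D it was also abundant in shoots, at 74.1 to 144 raw CPM. The 2 genes that rose were short, with gene spans of 580 and 751 bases, and the genes that fell spanned 5938 bases (BnaA04g20940D) and 1986 bases (BnaA03g49690D). The level of all genes moved with gene span in these libraries, as given below. With gene span as an offset in the edgeR fit, an alternative chosen after seeing the data, the log2 fold changes were 1.02 for BnaA03g54880D, 1.25 for BnaC05g38240D, -0.63 for BnaA04g20940D and -0.90 for BnaA03g49690D. Control replicate 2, the control that shares its name number with the PA23 libraries, lay outside the PA23 range for all 4 genes. Every fit that chose these genes included control replicate 2, so its place is a description and no check on the number. With the number as a covariate the log2 fold changes of the same genes, in the same order, were 1.34, 1.46, -0.84 and -0.83 (edgeR adjusted p = 1 each).

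**Figure D1:**
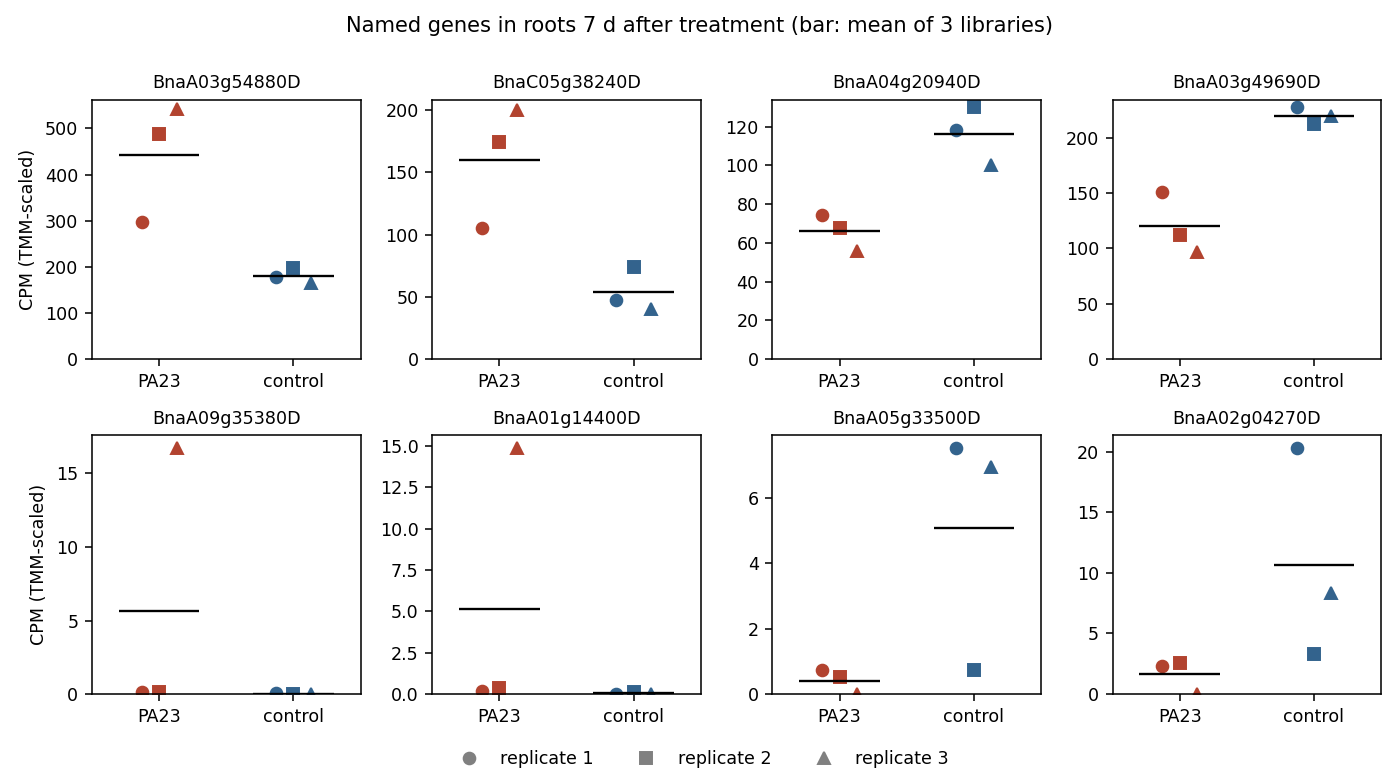
CPM (linear axis from 0) of 8 genes in the 3 PA23 and the 3 control libraries of roots at 7 d; symbols mark the replicate and the bar the mean of 3 libraries. In the upper row, the genes called in every DESeq2 fit, the groups are apart and PA23 replicate 1 is the PA23 library nearest to the controls; in the lower row the genes of largest fold change rest on 1 or 2 libraries of a group.

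The genes with the largest fold changes were of another kind: low in most libraries and carried by 1 or 2. They were taken by a rule of size, no overlap between the groups and a mean of at least 2 CPM, which 915 higher and 1412 lower genes met at an unadjusted p under 0.05. None of those named passed the adjusted threshold with all 6 libraries. BnaA09g35380D (A09, 25808955 to 25811193) lay at 0.134, 0.127 and 16.8 CPM in the PA23 libraries, against 0.0742, 0 and 0 CPM in the controls. These are 26 counts with PA23 and 6 in controls, a ratio of 9.01 for the pooled counts (95% counting interval 3.63 to 26.8). BnaA01g14400D (A01, 7285230 to 7286538) lay at 0.201, 0.381 and 14.9 CPM with PA23, against 0.0247, 0.154 and 0 CPM in controls, a pooled ratio of 7.85 (3.69 to 18.6). Both were high in PA23 replicate 3 alone, and both were shoot genes, at 312 to 569 and 219 to 343 raw CPM in shoots. Their edgeR log2 fold changes were 6.28 (SE 2.20, adjusted p = 0.664) and 5.25 (SE 1.82, adjusted p = 0.648). Neither gene passed the filter on low counts without PA23 replicate 3, so neither was tested there.

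On the lower side the rule gave root genes that 2 of the 3 controls carried. BnaA05g33500D (A05, 22677507 to 22679924) lay at 0.738, 0.508 and 0 CPM with PA23, against 7.54, 0.748 and 6.95 CPM in controls (edgeR log2 fold change -2.89, SE 0.77, adjusted p = 0.621). BnaA02g04270D (A02, 1913892 to 1917371) lay at 2.28, 2.60 and 0 CPM with PA23, against 20.3, 3.32 and 8.34 CPM in controls (-2.32, SE 0.61, edgeR adjusted p = 0.621). In both genes control replicate 2 was close to the PA23 libraries and the groups were barely apart. Over edgeR fits without 1 library the log2 fold change of BnaA05g33500D ran between -3.66 and -1.01 and that of BnaA02g04270D between -2.94 and -0.78, with adjusted p between 0.00386 and 1 and between 0.00356 and 1. Without control replicate 2 both were called, and without control replicate 1 both log2 fold changes were at the small end of those ranges.

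Without PA23 replicate 3 the same rule, met by 936 higher and 1542 lower genes, gave BnaA05g33500D again and 3 others. BnaC02g39910D (C02, 42781368 to 42783700) lay at 0.637 and 30.7 CPM in PA23 replicates 1 and 2, against 0.593, 0.330 and 0 CPM in controls (edgeR log2 fold change 5.03, SE 1.94, adjusted p = 0.801). The PA23 replicate left out had 8 counts (7.45 CPM), and without PA23 replicate 2 the log2 fold change was 1.98. BnaA08g04980D (A08, 4877180 to 4887005) lay at 2.31 and 6.66 CPM with PA23, against 1.62, 0.220 and 0 CPM in controls (2.23, SE 0.79, edgeR adjusted p = 0.797). Both of these PA23 values were above every control value, but the 0 of control replicate 3 allows up to 4.82 raw CPM, more than PA23 replicate 1. The PA23 replicate left out had a count of 0, which allows up to 2.99 raw CPM. The log2 fold change was 1.08 without PA23 replicate 2 and 4.21 without control replicate 1. BnaA03g22790D (A03, 10833279 to 10835504) lay at 0.604 and 0.793 CPM with PA23, against 10.8, 0.969 and 2.78 CPM in controls (-3.06, SE 0.95, edgeR adjusted p = 0.797). In BnaA03g22790D the PA23 replicate left out had 2 counts (1.86 CPM), above control replicate 2. Its log2 fold change was -0.53 without control replicate 1, and without control replicate 2 the gene was called (-3.68, edgeR adjusted p = 0.00356). The 1 gene that edgeR called without PA23 replicate 2 also depended on a single library. BnaC07g03020D (C07, 3848052 to 3849185), named after its values were seen, lay at 1.74, 20.8 and 4.65 CPM with PA23, against 16.6, 19.2 and 38.9 CPM in controls. Its log2 fold change was -3.40 without PA23 replicate 2 (edgeR adjusted p = 0.045) and -0.99 with all libraries (SE 0.78, edgeR adjusted p = 0.861).

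The 2 IDs with another name did not pass the threshold. BnaA02g32290D, listed as KCP1, lay at 20.1, 23.4 and 24.2 CPM with PA23, against 19.0, 18.9 and 19.5 CPM in controls. The groups did not overlap, but the log2 difference was 0.22 (SE 0.17, edgeR adjusted p = 0.849). BnaCnng15100D, listed as TR1, lay at 24.3, 26.3 and 12.1 CPM with PA23, against 20.4, 24.5 and 18.1 CPM in controls, with overlapping groups (log2 fold change 0.07, SE 0.21, edgeR adjusted p = 0.987).

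Genes that mark each tissue were used to check the labels. The lists hold the 200 genes with the largest excess in shoot and the 200 with the largest excess in root among control libraries at 24 h, none of which is a 7 d library. Root-preferred genes summed to 9884, 8847 and 7210 raw CPM (counts per mega counts, without TMM scaling) in PA23 replicates 1, 2 and 3, against 11051, 10515 and 12726 in control replicates 1, 2 and 3. All 3 PA23 libraries thus lay below all 3 controls. In 24 h roots of both treatments the sum was 9615 to 10347. The list's median edgeR log2 fold change was -0.33, against 0.01 over all genes tested, and 149 of its 200 genes were below 0. At an unadjusted p under 0.05, 52 were lower with PA23 and 6 higher, together 29% of the list, against 6.97% of all genes (4.03% lower, 2.94% higher). The list was abundant, with a median of 23.0 CPM, and 14.3% of all genes of 20 to 100 CPM had such a p. With edgeR 0 of the list passed the adjusted threshold. With DESeq2 5 did, against 0.258% of all genes, a share that includes low genes without a DESeq2 adjusted p. The 3 PA23 libraries all lay below the controls in 32 of the 200 (16%), against 5.12% over all genes. Among genes of 20 to 100 CPM, nearer the level of the list, that was so in 1020 of 10201. PA23 replicates 1 and 2, taken without the third, were both below all controls in 35 of the 200 (17.5%). The share over all genes, 6.67%, is again not matched for level. Without PA23 replicate 3 the median was -0.27 with 145 genes below 0, and without PA23 replicate 1 it was -0.53 with 11 called genes, against 0.866% of all genes called in that fit. Fewer root cells of a type and less RNA per cell cannot be told apart in such bulk samples.

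The shoot-preferred list showed which library carried shoot transcripts. In raw CPM it summed to 23.0, 21.3 and 1191 in the PA23 libraries, against 9.44, 31.5 and 61.1 in the controls. In the 12 shoot libraries it summed to 25536 to 38423. PA23 replicate 3 stood at 4.04% of the level of 24 h control shoots, and each of the other 5 root libraries at 0.207% or less. In PA23 replicate 3, 90 of the 200 genes had a count. Of the 200, 37 passed the filter on low counts with all libraries and 26 without PA23 replicate 3. The root-preferred sum was lowest in that same library, while PA23 replicates 1 and 2 were also below every control. The part of shoot RNA in the value of PA23 replicate 3 was not tested.

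**Figure D2:**
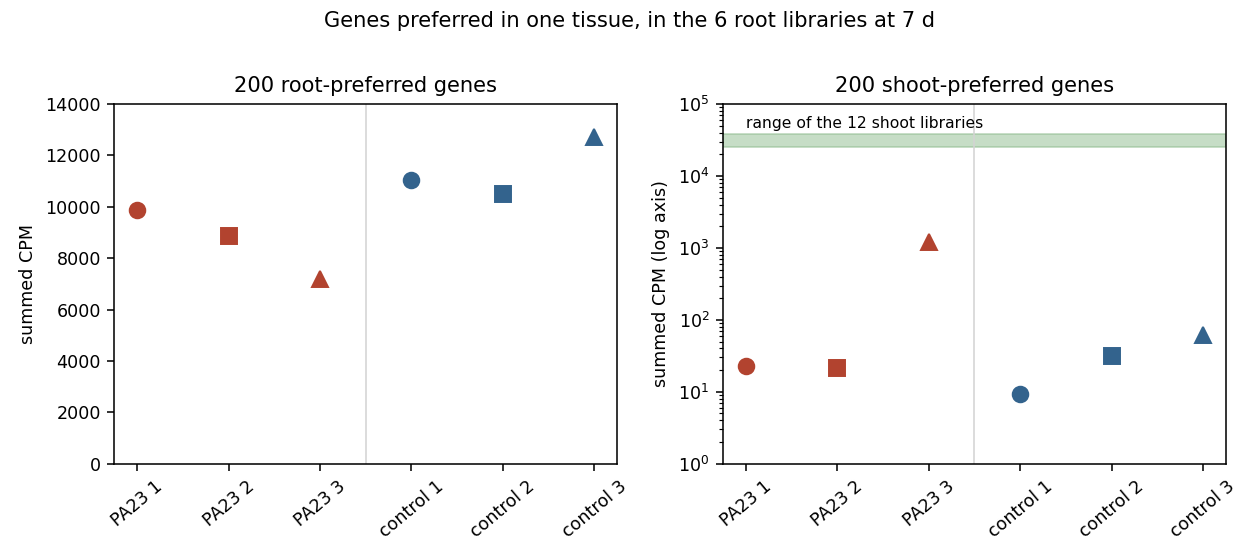
Summed raw CPM of the 200 root-preferred genes (left, linear axis from 0) and of the 200 shoot-preferred genes (right, log axis) in the 3 PA23 and the 3 control root libraries at 7 d; each point is 1 library and the band is the range of the 12 shoot libraries. The PA23 points lie below all control points on the left, and PA23 replicate 3 alone, at 1191 CPM, stands far above the other root libraries on the right.

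The difference followed tissue preference beyond the 200 genes. Genes of at least 5 CPM were grouped by their shoot over root log2 fold change in 24 h controls. The 1541 genes lowest on that scale (at or under -6) had a median PA23 log2 fold change of -0.25, and the 25800 genes within 4-fold between the tissues a median of -0.01. The 449 genes over 4 on that scale had a median of 0.28 with all libraries and of 0.04 without PA23 replicate 3. Root genes were thus lower with PA23 with and without that library (-0.22 without it), whereas the excess of shoot genes came with PA23 replicate 3.

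The difference between the treatments also ran along gene span, the distance from the first to the last base of a gene in the deposited table, introns included. Among genes of at least 5 CPM, short genes lay higher and long genes lower with PA23. The shortest quintile (6410 genes of 66 to 1369 bases) had a median log2 fold change of 0.19, with 73.0% of genes above 0. The longest quintile (6404 genes of 3640 to 26418 bases) had a median of -0.18, with 24.9% above 0. The quintiles between them had medians of 0.08, -0.03 and -0.10, in order of span. At an unadjusted p under 0.05, 788 of the 6410 genes of the shortest quintile were higher and 175 lower. Of the 6404 in the longest, 71 were higher and 795 lower. Over all genes tested, at any level, 2.94% were higher and 4.03% lower. By level, 509 of 20405 genes of 5 to 20 CPM were higher and 820 lower. At 20 to 100 CPM 577 of 10201 were higher and 878 lower, and at 100 CPM or more 250 of 1430 were higher and 192 lower.

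Every PA23 library lay outside the controls at both ends of this order, although PA23 replicate 1 only just did. Relative to the median of the 24 h root libraries, the shortest quintile stood at 0.19, 0.37 and 0.34 on the log2 scale in PA23 replicates 1, 2 and 3, against 0.14, 0.04 and 0.08 in control replicates 1, 2 and 3. The longest quintile stood at -0.18, -0.35 and -0.34 with PA23, against -0.17, -0.05 and -0.11 in controls. Without PA23 replicate 3 the medians of the shortest and the longest quintile were 0.17 and -0.18, and without PA23 replicate 1 they were 0.21 and -0.31. The difference between these 2 quintiles was 0.37 with all libraries, 0.24 without PA23 replicate 2 and 0.51 without PA23 replicate 1. At 24 h, in other libraries, the PA23 effect ran the other way, with medians of -0.19 in the shortest and 0.24 in the longest quintile. The genes that DESeq2 called followed the same order: the 60 higher ones had a median span of 1104.5 bases and the 104 lower ones of 3278 bases. The median was 1920 over all genes tested and 2256 over those of at least 5 CPM. Leaving out PA23 replicate 3, the medians of the called genes were 799 bases for the 9 higher and 2711 bases for the 41 lower calls. The labels give no RNA integrity values, and the part of library quality in this order was not tested. The median of the root-preferred genes was -0.36 with gene span as an offset, against -0.33 without it.

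**Figure D3:**
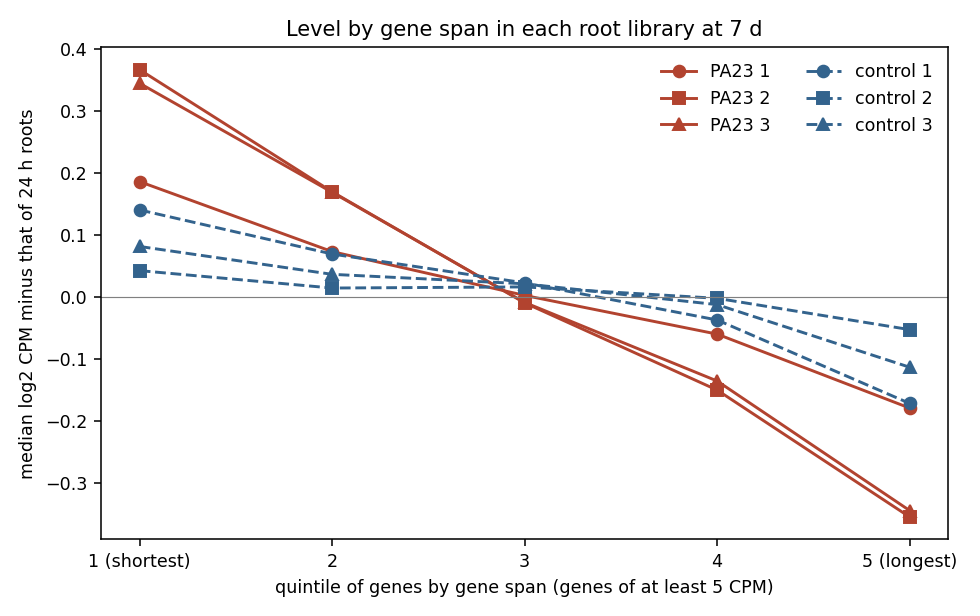
Median log2 CPM of each quintile of genes by gene span, relative to the median of the 24 h root libraries, in the 3 PA23 (solid) and the 3 control (dashed) root libraries at 7 d; each line is 1 library. PA23 replicates 2 and 3 run from 0.37 and 0.34 in the shortest quintile to -0.35 and -0.34 in the longest, PA23 replicate 1 lies between them and the controls, and control replicate 2 is the flattest.

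By chromosome, C02 had the median furthest from 0 with all libraries, though not without PA23 replicate 1, where C01 did (-0.18, against -0.17 on C02). Its 2393 tested genes had a median log2 fold change of -0.09, and 39.99% were above 0. The 3 PA23 libraries all lay below the controls in 190 of them (7.94%, against 5.12% over all genes) and all above in 76 (3.18%, against 5.93%). With PA23 replicate 3 left out these counts were 230 (9.64%, against 6.67%) and 195 (8.17%, against 12.7%) of 2386. Relative to the 24 h roots, C02 genes of at least 20 CPM stood at -0.09, -0.13 and -0.30 in PA23 replicates 1, 2 and 3, against 0.04, -0.04 and -0.02 in control replicates 1, 2 and 3. The groups were apart with and without PA23 replicate 3, which was the lowest. They were not clearly apart on the first part of C02 (1576 to 6874552, 360 genes of at least 5 CPM, chosen after the values were seen), where PA23 replicates 1, 2 and 3 stood at -0.12, -0.18 and -0.39, against 0.06, -0.12 and 0.11 in control replicates 1, 2 and 3. In windows of 40 neighbouring genes, PA23 replicates 1 and 2 were both below control replicates 1 and 2 in 14 of 26 windows and both above them in 0. The median was -0.08 without PA23 replicate 3. Its homoeologue A02 had a median of 0.02.

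**Figure D4:**
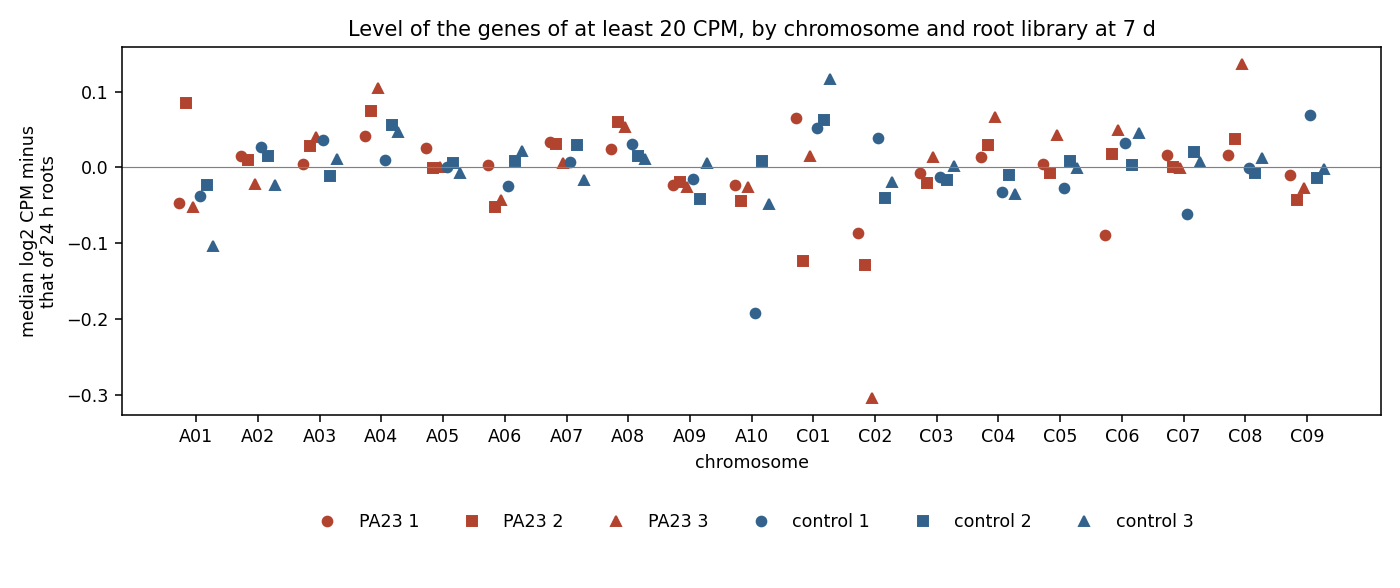
Median log2 CPM of the genes of at least 20 CPM on each chromosome, relative to the median of the 24 h root libraries, in the 3 PA23 and the 3 control root libraries at 7 d; each point is 1 library. On C02 the PA23 points lie below the control points, whereas on A10, C09, A01 and C01 1 library stands apart from the others of its own group.

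On 2 other pairs of homoeologous chromosomes a difference between the groups came with 1 library. At the end of A10 (13015650 to 17357302, 421 genes of at least 5 CPM) PA23 replicates 1, 2 and 3 stood at -0.00, -0.06 and -0.03, against -0.38, 0.01 and -0.02 in control replicates 1, 2 and 3. Control replicate 1 was the lowest of the 4 deep libraries in all 10 windows of the stretch. At the end of C09 (41946975 to 48498892, 444 genes) the same library was the highest in all 11 windows. PA23 replicates 1, 2 and 3 stood at 0.01, -0.08 and -0.11 there, against 0.24, -0.01 and -0.05 in control replicates 1, 2 and 3. Both stretches were chosen after the values were seen. The C09 stretch was taken as the last unbroken run of windows in which control replicate 1 was the highest deep library. Its 11 of 11 windows therefore follow from the choice, and the A10 count is not independent of its choice either.

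These stretches touched the treatment comparison. The 777 tested genes of the A10 stretch had a median log2 fold change of 0.15, of 0.02 without control replicate 1 and of 0.15 without PA23 replicate 3. The 786 of the C09 stretch had a median of -0.12, of 0.01 without control replicate 1 and of -0.13 without PA23 replicate 3. The 3 PA23 libraries all lay above the controls in 103 genes of the A10 stretch (13.3%, against 5.93% over all genes) and all below in 10 (1.29%, against 5.12%). With PA23 replicate 3 left out they were 169 (21.8%, against 12.7%) and 11 (1.42%, against 6.67%). On the remaining part of A10 they were, with all libraries, 61 (5.07%) and 74 (6.16%). DESeq2 called 9 genes of the stretch higher and 1 lower (1.29% of its genes, against 0.258% over all), 2 higher and 1 lower without PA23 replicate 3 (0.387%, against 0.0789%), and 7 higher and 4 lower without control replicate 1 (1.44%, against 0.887%). In each pair both shares include low genes without a DESeq2 adjusted p. On A01 and C01 the library apart from the others was PA23 replicate 2. It was the highest of the 4 deep libraries in 25 of 31 windows of A01 and the lowest in 28 of 31 windows of C01. Over A01 it stood at 0.08, against -0.05 and -0.03 in PA23 replicates 1 and 3 and -0.07 to -0.03 in the controls.

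**Figure D5:**
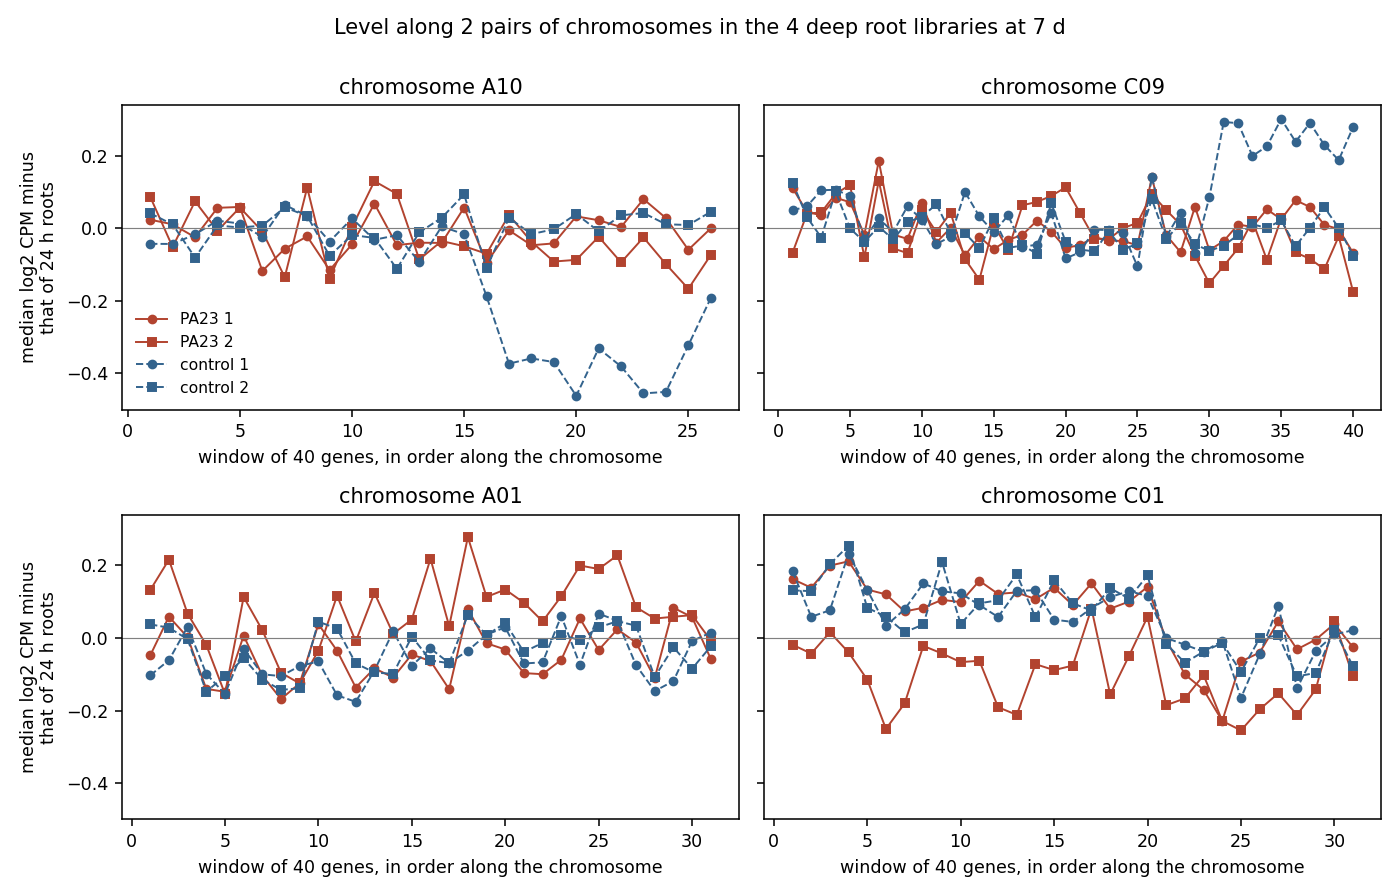
Median log2 CPM of windows of 40 neighbouring genes, relative to the median of the 24 h root libraries, along A10, C09, A01 and C01 in PA23 replicates 1 and 2 (solid) and control replicates 1 and 2 (dashed), the 4 deep libraries at 7 d. PA23 replicate 2 runs above the others in 25 of 31 windows of A01 and below them in 28 of 31 of C01. Control replicate 1 is the lowest at the end of A10 and the highest at the end of C09, 2 stretches chosen on these values.

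The effect of PA23 in roots at 7 d was also set against its effect at 24 h, in 3 PA23 and 2 control libraries that are all different from those at 7 d. By edgeR's test of the difference itself, 243 of 63551 genes (0.382%) differed between the harvests, and 119 without PA23 replicate 3 of the 7 d roots. The effect was higher at 7 d in 94 of the 243 (38.7%), and in 319 of the 566 (56.4%) called with RLE size factors. Among edgeR fits without 1 of the 11 libraries the count was 2901 without PA23 replicate 1 of the 7 d roots, 1484 without control replicate 1 of the 7 d roots, 3 without PA23 replicate 2 and 10 without control replicate 3 of the 7 d roots, and 6 to 42 without any 1 of the 5 libraries at 24 h. The 4 genes named from the DESeq2 fits were among the 243, and each pointed the other way at 24 h. BnaA03g54880D averaged 222 ± 10.7 CPM with PA23 (SD, n = 3) and 300.5 CPM in controls at 24 h, a log2 fold change of -0.44 (edgeR adjusted p = 0.424), and the difference between the harvests was 1.72 (SE 0.31, edgeR adjusted p = 0.0367). For BnaA03g49690D the 24 h means were 186 CPM with PA23 and 127 CPM in controls, a log2 fold change of 0.55 (edgeR adjusted p = 0.202), and the difference was -1.41 (SE 0.24, edgeR adjusted p = 0.0349). Its 7 d level with PA23 was thus below its 24 h level with PA23, and its 7 d control level above its 24 h control level. The sign of the difference held for the 4 genes in each of the 11 fits without 1 library, but the call held in 4 for BnaA03g54880D and BnaA03g49690D, 3 for BnaC05g38240D and 2 for BnaA04g20940D. Without PA23 replicate 3 of the 7 d roots, BnaA03g49690D alone of the 4 was called (edgeR adjusted p = 0.0468). Since these genes were chosen on their 7 d values, the difference uses the libraries that chose them.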

How the data were processed

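The deposited values are raw counts per gene, from the authors; per the submitters' processing notes HISAT2 and DESeq2 were used, with no version given. The labels and files name no genome build, annotation, counting tool or strand setting. From these counts, edgeR 4.0.16 (R 4.3.3) fitted the 11 root libraries in 4 groups after filterByExpr and TMM scaling, with the robust quasi-likelihood test and a Benjamini-Hochberg threshold of 0.05. The SE is the log2 fold change divided by the square root of F. DESeq2 1.42.0 and limma-voom (limma 3.58.1), other filters and scalings, and fits without each library were alternatives, and the scripts were tested on simulated data. The members and lists were chosen with earlier results of these data known. Named genes are the 2 higher and 2 lower of largest fold change past the threshold (with fewer than 2, at an unadjusted p under 0.05), at least 2 CPM on average and no overlap, with all libraries and without PA23 replicate 3. The 27 lists of gene descriptions could not be filled, because the RefSeq table has no descriptions; 3347 of 101040 IDs (3.31%) matched it. Deviations from 24 h roots use log2(CPM + 0.5). Counting intervals are exact 95% binomial intervals and cover counting error only. Both mates of a read pair may have been counted.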

Additional observations from a re-analysis of the deposited data

Results flagged for a closer look

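In 4 genes the PA23 effect in roots was not the same at 7 d as at 24 h by edgeR's test of the difference itself. The difference of log2 fold changes, 7 d minus 24 h, was 1.72 for BnaA03g54880D (edgeR adjusted p = 0.0367), 1.90 for BnaC05g38240D (0.0471), -1.10 for BnaA04g20940D (0.0494) and -1.41 for BnaA03g49690D (0.0349). At 24 h the log2 fold changes were -0.44, -0.41, 0.28 and 0.55 in that order, none of which passed the threshold. The genes were taken from the 7 d comparison, so a difference from 24 h is not independent of their choice. In the 11 edgeR fits without 1 library the calls held in 4, 3, 2 and 4 for these genes, in the same order.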

How the results depend on the processing

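Over 24 alternatives for the comparison at 7 d, edgeR and limma-voom called 0 genes except where a 7 d library was left out; fits without 1 library gave 0 to 548 calls. DESeq2 called 164. Alternatives chosen after seeing the data gave 50 (DESeq2 without PA23 replicate 3), 934 (DESeq2 without PA23 replicate 1), 63 (DESeq2 without the libraries under 2 M counts), 553 (DESeq2 without control replicate 1), 228 (edgeR without PA23 replicates 1 and 3) and 386 (gene span as an offset, without PA23 replicate 1). The cause was not tested.

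The count for the harvest difference, 243, was 566 with RLE size factors, 545 with no filter, 520 at a mean of at least 1 CPM, 1914 with DESeq2, 2147 with limma-voom, 1457 with counts halved, 16 with the name number as a covariate and 0 without the libraries under 2 M counts (edgeR; 13108 at an unadjusted p under 0.05). Fits without 1 library gave 3 to 2901. The alternatives chosen after seeing the data gave 1985, 2956, 4806, 2199, 2133 and 1689 in the order above, 647 without shoot-preferred genes and 94 with gene span as an offset. The 6 libraries alone give no such difference.

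The median of the root-preferred genes kept its sign in 24 alternatives (-0.53 to -0.24). The shortest minus the longest quintile by span was 0.37, and 0.01 to 0.53 in the 6 alternatives that moved it, lowest with the span offset and 0.24 without PA23 replicate 2. The span offset is fitted to this trend in each library and removes it by construction, so its value is no check. The 4 alternatives that turned a sign were all for BnaCnng15100D: -0.02 without control replicate 1, -0.02 without PA23 replicate 1, -0.10 without PA23 replicate 2 and -0.0051 with DESeq2 without control replicate 1; fits without 1 library ran between -0.10 and 0.19.

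The replicate numbers do not pair the libraries: deviations of same-numbered libraries correlated at -0.27, -0.26 and -0.08. With a replicate block edgeR called 0 genes at 7 d (3480 at an unadjusted p under 0.05) and 30 for the harvest difference. In the shallow libraries a count of 0 allows up to 2.99 raw CPM in PA23 replicate 3 and 4.82 raw CPM in control replicate 3. Differences under a few CPM were thus not detectable there.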

Other observations

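The share of genes with an unadjusted p under 0.05 in the 7 d comparison was higher among abundant genes. It was 3.85% of 13386 genes under 1 CPM, 14.3% of 10201 genes of 20 to 100 CPM and 30.9% of 1430 genes of 100 CPM or more (edgeR, all libraries). In the most abundant class 250 genes lay higher and 192 lower with PA23.

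PA23 replicate 1 differed less from control replicate 2 than any other pair of deep libraries did. Over 11631 genes of at least 20 CPM the coefficient of variation between them was 10.7%, against 15.0% between PA23 replicates 1 and 2, 16.95% between control replicates 1 and 2, and 21.8% between PA23 replicate 2 and control replicate 2.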
